A study of Ovis aries with 8 samples.

Results

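The genes described here make steroid hormones in the cortex of the adrenal gland, which lies beside the kidney and its fat: STAR, CYP11A1, HSD3B1, CYP17A1, CYP21A2, CYP11B1, FDX1, NR5A1 and MC2R. They were measured in perirenal adipose tissue, which lies against kidney and adrenal gland, where signal from them could come from neighbouring adrenal tissue. The members were every probe set whose symbol in the array's annotation was 1 of these 9 names, which gave 14 probe sets of the 24016 tested and 9 of the 9155 genes with a named probe set. Where a gene had several, the probe set with the highest mean over the lambs stood for it. The animals were Dorset/Suffolk/Rambouillet cross-bred male lambs of 12 weeks from 1 flock. The NmatCpat group (4 lambs, labelled Callipyge) carried the Callipyge mutation on the chromosome from the sire. The NmatNpat group (4 lambs, labelled wildtype) did not carry it. Each lamb gave fat cut from a pre-set place and 1 Affymetrix Bovine Genome array. Its probe sets, each a group of short probes for one transcript, were made to cattle sequence, and a sheep transcript that differs under them can read low.

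Steroid synthesis starts when STAR brings cholesterol into the mitochondrion, where CYP11A1 cuts its side chain to give pregnenolone. Electrons for CYP11A1 and for CYP11B1, the last enzyme of cortisol synthesis, are carried by the iron-sulfur protein FDX1. HSD3B1, CYP17A1 and CYP21A2 carry out the steps between. In the adrenal cortex the pathway is switched on by the pituitary hormone ACTH through its receptor MC2R, and the nuclear receptor NR5A1 (also called SF-1) drives transcription of most of these genes.

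The deposited MAS5 intensities were put on a log2 scale and given the same distribution on every array (quantile normalization), and all values below are on that scale. Before this step, the linear median of an array lay between 65.9 and 71.7 for NmatCpat, and between 65.3 and 72.6 for NmatNpat. Of 19 measured fat cell markers, 15 had a mean above the median level of all probe sets, which was 5.99. LEP, SLC2A4, RETN and LPIN1 lay below it. Of other steroid pathway genes, described below, 33 of 44 were above it, so the count alone does not identify the tissue. One array stood apart. On that of NmatNpat animal 1, 21 of 26 genes of chromaffin cells and neurons read higher than on any other array, so results are also given without it.

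Of the 9 genes 7, all but FDX1 and NR5A1, had mean signals below the median level. Of their 56 single values, 3 lay above it: STAR in NmatCpat animal 3 and NmatNpat animal 1, and HSD3B1 in NmatCpat animal 4. In order of mean signal the genes were FDX1 (9.14), NR5A1 (7.15), STAR (5.34), HSD3B1 (4.95), CYP17A1 (4.78), CYP21A2 (4.32), CYP11B1 (4.07), MC2R (4.01) and CYP11A1 (3.64). FDX1 read above NR5A1 in every lamb, and NR5A1 above the other 7 genes in every lamb. The 7 lower genes overlapped one another in range. Probe sets differ in how well they bind, so the order is one of array signal and not of transcript amounts. In a bulk sample, fewer cells of a type and less RNA per cell cannot be told apart.

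**Figure D1:**
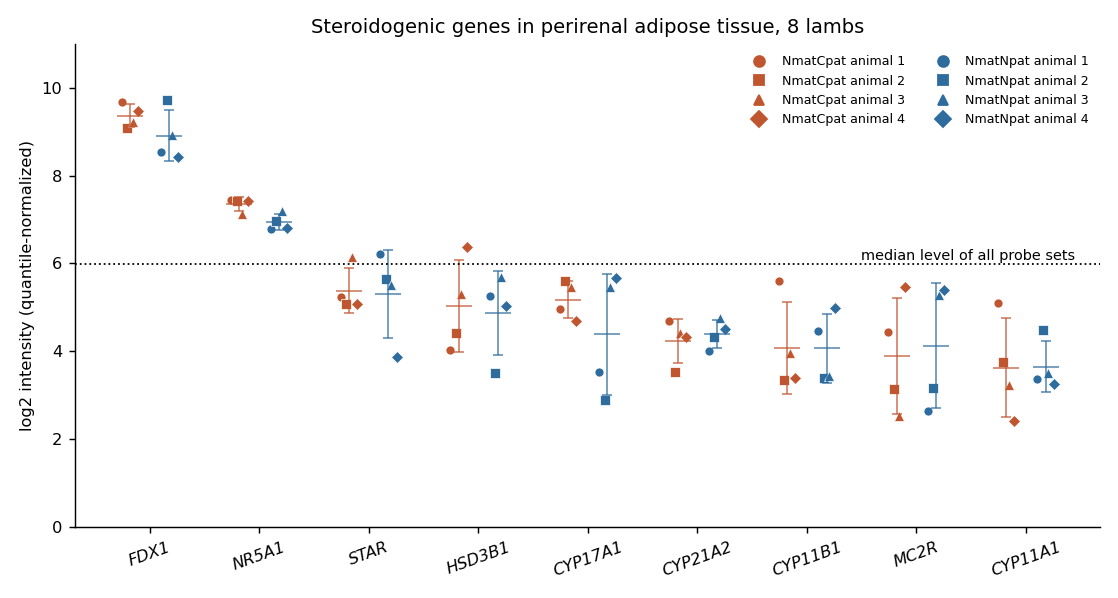
Log2 intensity (vertical axis) of the brightest probe set of each gene (horizontal axis, in order of mean), with 1 point per lamb and lines and whiskers for the mean and SD of 4 lambs per genotype. The dotted line is the median level of all probe sets, 5.99. FDX1 and NR5A1 lie above it in all 8 lambs and the other 7 genes mostly below it.

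STAR, the cholesterol carrier, read 5.23, 5.08, 6.14 and 5.07 in NmatCpat animals 1 to 4 and 6.21, 5.64, 5.50 and 3.87 in NmatNpat animals 1 to 4. The highest and the lowest value both belonged to NmatNpat lambs, and the genotypes overlapped. Its mean was 5.38 ± 0.51 (SD, n = 4) for NmatCpat against 5.31 ± 1.0 (SD, n = 4) for NmatNpat.

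CYP11A1, which makes the first steroid of the pathway, had the lowest mean of the 9 genes. It read 5.10, 3.76, 3.24 and 2.41 in NmatCpat and 3.36, 4.49, 3.50 and 3.24 in NmatNpat animals 1 to 4. NmatCpat animal 1 exceeded the average of the other lambs by 1.67 log2 units, and NmatCpat animal 4 was the lowest. The same NmatCpat animal 1 was highest for CYP11B1, which read 5.60, 3.35, 3.96 and 3.40 in NmatCpat animals 1 to 4 and 4.45, 3.40, 3.43 and 4.99 in NmatNpat animals 1 to 4. That gap of 1.75 log2 units to the mean of the other lambs was the widest among the brightest probe sets of the 9 genes. It was not seen on the dimmer CYP11B1 probe set, which read 2.51 in NmatCpat animal 1 and 2.07 to 3.17 over all lambs.

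The enzymes between these steps did not single out NmatCpat animal 1. HSD3B1, which makes progesterone from pregnenolone, read 4.03, 4.41, 5.30 and 6.37 in NmatCpat and 5.27, 3.51, 5.69 and 5.03 in NmatNpat animals 1 to 4, with NmatCpat animal 4 the highest. CYP17A1, the 17-hydroxylase, read 4.96, 5.60, 5.46 and 4.69 in NmatCpat and 3.53, 2.88, 5.46 and 5.66 in NmatNpat animals 1 to 4. Its low values were those of NmatNpat animals 1 and 2, while the other 6 lambs lay within 4.69 to 5.66. CYP21A2, the 21-hydroxylase, varied least of the 7 lower genes. It read 4.70, 3.52, 4.42 and 4.31 in NmatCpat and 4.0, 4.32, 4.75 and 4.51 in NmatNpat animals 1 to 4.

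MC2R, the ACTH receptor, varied most, with an SD of 1.28 log2 units over the 8 lambs. It read 4.45, 3.14, 2.51 and 5.46 in NmatCpat and 2.65, 3.17, 5.28 and 5.40 in NmatNpat animals 1 to 4. Each genotype held lambs at the top of this range and lambs at the bottom. On its dimmer probe set, which read 1.87 to 4.65, the highest lamb was NmatNpat animal 3, and NmatCpat animal 4, the highest on the brighter one, read 3.04.

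NR5A1 was above the median level in every lamb on its brightest probe set. It read 7.45, 7.43, 7.12 and 7.43 in NmatCpat and 6.79, 6.96, 7.20 and 6.81 in NmatNpat animals 1 to 4. Of the NmatCpat lambs 3 were above all NmatNpat lambs, and NmatCpat animal 3 was below NmatNpat animal 3. The other 3 probe sets annotated to NR5A1 had means of 6.29, 5.86 and 1.98. They did not share one order of lambs: NmatCpat animal 1 was highest on 3 of the 4 probe sets and lowest on the remaining one, where it read 5.24.

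FDX1 was the brightest member, above 89.6% of all probe sets. It read 9.68, 9.08, 9.22 and 9.46 in NmatCpat and 8.55, 9.72, 8.94 and 8.42 in NmatNpat animals 1 to 4. The highest and the lowest lamb, NmatNpat animals 2 and 4, belonged to one genotype. FDX1 also serves mitochondrial enzymes in tissues that make no steroids. Its lowest lamb, NmatNpat animal 4, was the highest for CYP17A1.

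**Figure D2:**
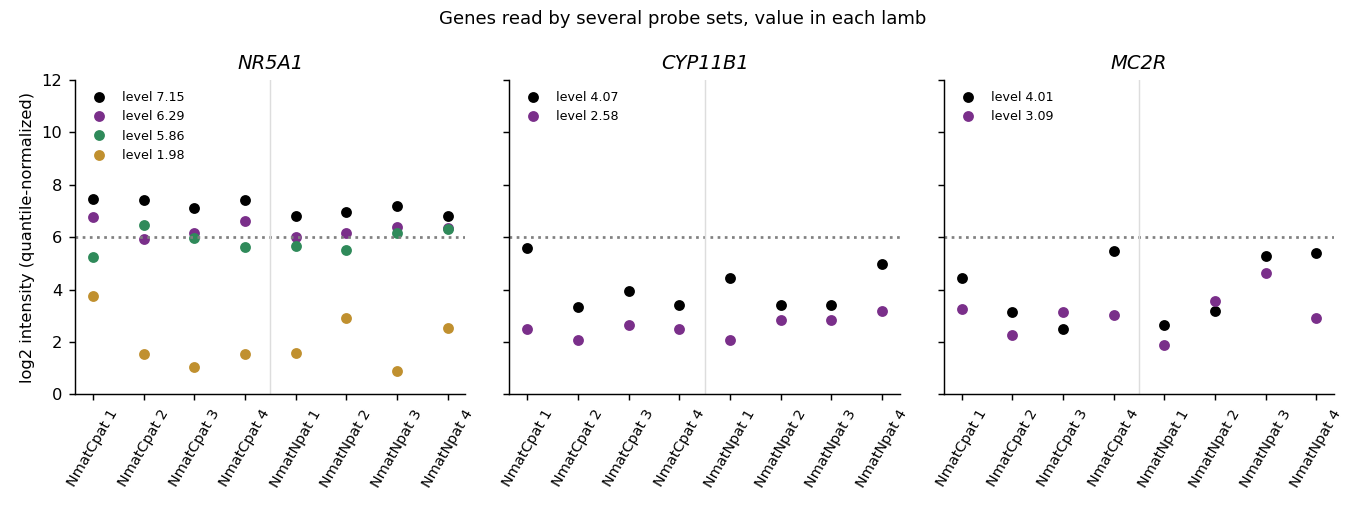
Log2 intensity (vertical axis) in each lamb (horizontal axis) on the 4 probe sets of NR5A1, 2 of CYP11B1 and 2 of MC2R, each labelled by its mean level, with the median level of all probe sets dotted and a grey line between the genotypes. Probe sets of one gene differ in level, for NR5A1 from 1.98 to 7.15, and in which lamb is highest.

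The spread between lambs was set against that of all probe sets of like signal, in 4 bands of level that held equal numbers of probe sets. The median SD over 8 lambs was 1.08 log2 units in the dimmest band and 0.691, 0.350 and 0.236 in the brighter ones. FDX1 varied more than that, with an SD of 0.485 where the median of its band was 0.236. CYP17A1 (1.04) and HSD3B1 (0.928) were above 0.691, MC2R (1.28) was above 1.08, and STAR (0.738) was close to 0.691. NR5A1 (0.274 against 0.350), CYP21A2 (0.400 against 0.691), CYP11A1 (0.830 against 1.08) and CYP11B1 (0.860 against 1.08) varied less. In all, 5 of the 9 genes were above the median of their band. The bands are wide, and CYP17A1 and HSD3B1 lay toward the dim end of theirs. In a narrower band around their level (median 4.86), the median SD was 0.817 and the quartiles 0.608 and 1.03. HSD3B1 lay inside these quartiles and CYP17A1 just above the upper one. This is a description, with no test.

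**Figure D3:**
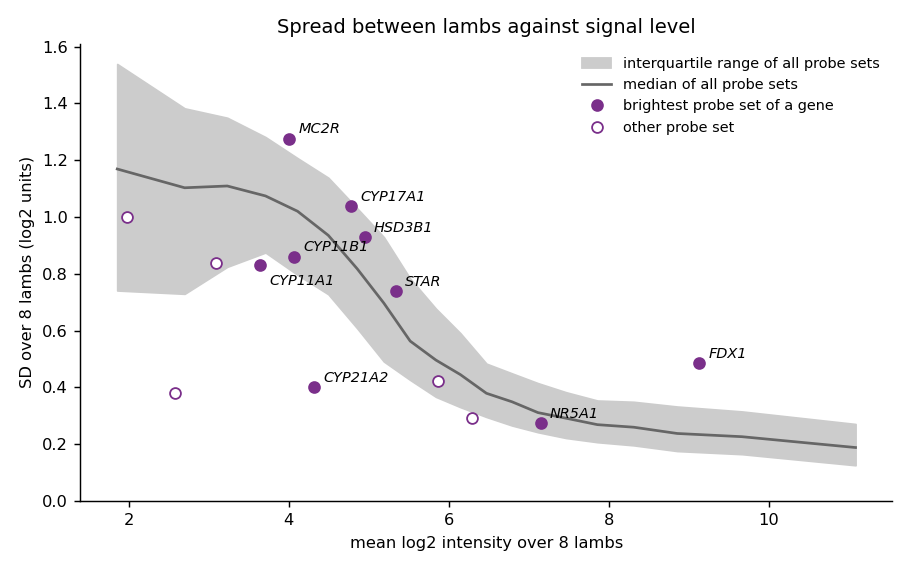
SD over the 8 lambs (vertical axis, log2 units) against mean log2 intensity (horizontal axis). The shaded band is the interquartile range over all probe sets along the level and the line their median. Filled points are the brightest probe set of each gene and open points the other 5. Of the filled points, FDX1 (SD 0.485) and MC2R (1.28) lie above the band, CYP21A2 (0.400) and CYP11A1 (0.830) below it, and CYP17A1 (1.04) close to its upper edge.

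The lambs that read highest differed from gene to gene. The 9 genes had their highest value in 6 different lambs, and the 7 lower genes in 5. NmatCpat animals 1 and 4 were each highest for 2 of the 7, NmatNpat animals 1, 3 and 4 for 1 each, and the remaining lambs for none. On the brightest probe set of each gene, no lamb exceeded the average of the other 7 arrays by more than 2 log2 units. Of the other 5 probe sets, the dimmest one of NR5A1 did so once, by 2.04 in NmatCpat animal 1. The mean deviation of the 7 lower genes from their own averages came to 0.42, -0.32, -0.01 and 0.09 for NmatCpat animals 1 to 4, and to -0.23, -0.53, 0.36 and 0.23 for NmatNpat animals 1 to 4. The lambs of both genotypes lay on both sides of 0.

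Chromaffin cells of the adrenal medulla make adrenaline and noradrenaline, and sympathetic neurons make noradrenaline with the same first enzymes. On the array of NmatNpat animal 1, 19 of the 26 measured genes of these cells exceeded the average of the other arrays by more than 2 log2 units. On the other arrays the number was 0 or 1. TH, the first enzyme of catecholamine synthesis, read 10.2 there and 3.30 to 5.81 elsewhere, and NEFL, a neurofilament subunit, 12.1 against 0.54 to 6.09. DBH, which makes noradrenaline, read 9.14 against 5.14 to 6.37. PNMT, which turns noradrenaline into adrenaline and marks the adrenal medulla, read 5.44 there, within the 2.77 to 6.38 of the other lambs. Its mean of 5.57 lay below the median level. Of the 26 genes, 21 were highest on this array, and PNMT, SYT1, GAL, SYP and CARTPT were not. SYT1 read 2.69 there, the lowest of all lambs, against 4.33 to 6.46 elsewhere. TH and NEFL were named because earlier results of these data had shown them high on 1 array. DBH, PNMT and SYT1 were also picked with their values known. Of the 19 measured kidney genes, 7 were highest on this array and 3 were over 2 log2 units above the others. UMOD, the kidney tubule protein, had the largest SD of the kidney list and read 7.22 there and 3.01 to 6.17 elsewhere. The kidney genes SLC34A1 (5.10) and AQP3 (9.61) had their lowest value on this array.

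The steroidogenic genes did not stand out on that array. Of the 9, only STAR was highest there, exceeding the average of the other lambs by 0.99 log2 units. For MC2R and CYP17A1 this difference was -1.55 and -1.42. The summed linear signal of the 7 lower genes was 178.6 on this array and 130.8 to 228.9 on the others, while that of the 26 chromaffin and neuron genes was 30811 against 3075 to 3859.

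**Figure D4:**
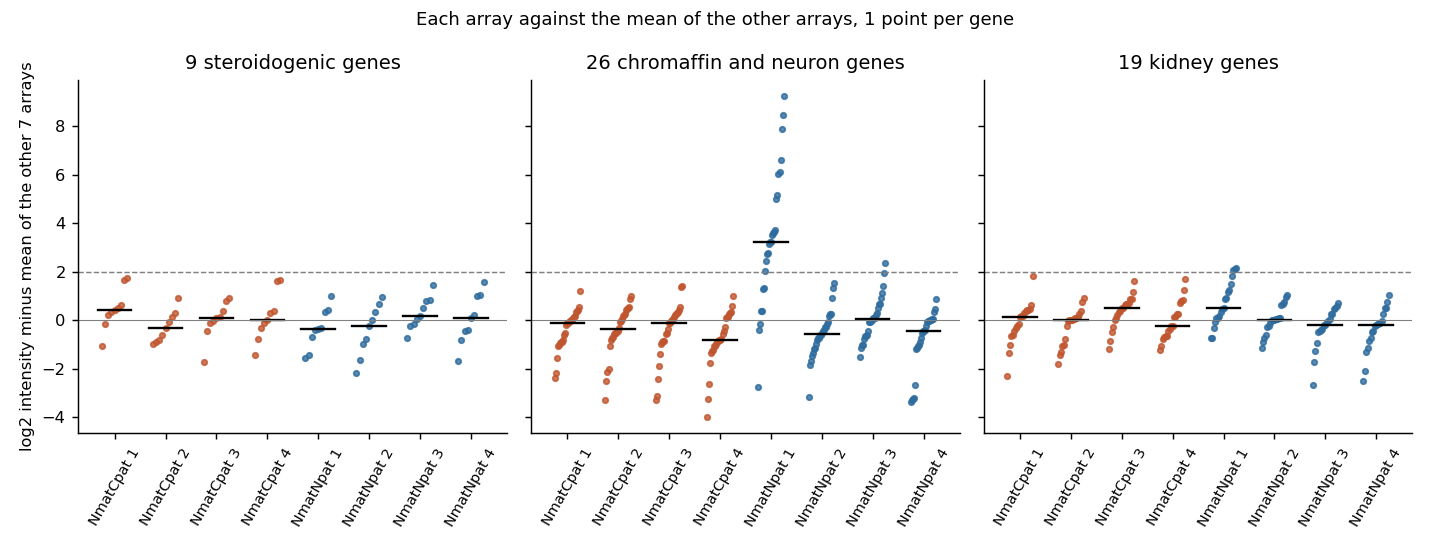
Log2 intensity of each gene on an array minus its mean on the other 7 arrays (vertical axis) for the 8 lambs (horizontal axis), with 1 point per gene, sorted within each lamb, and a bar at the median. Red points are NmatCpat and blue points NmatNpat lambs; the dashed line is at 2. On the array of NmatNpat animal 1, 19 of 26 chromaffin and neuron genes, 3 of 19 kidney genes and none of the 9 steroidogenic genes lie above that line.

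For the members above the median level, FDX1 and NR5A1, 3 relations over the 8 lambs were computed, with each other and with TH. FDX1 and NR5A1 had a Pearson r of 0.61 (exact permutation p = 0.12, Benjamini-Hochberg adjusted p = 0.36) and a Spearman rho of 0.50 (exact permutation p = 0.22, adjusted p = 0.65). Without NmatNpat animals 1 and 4, the lambs farthest from the median of the measure on the horizontal axis, r was -0.10, so the value rested on them. NR5A1 with TH gave r = -0.36 and rho = 0.10 (exact permutation p = 0.47 and 0.84, adjusted p = 0.47 and 0.84), and FDX1 with TH r = -0.47 and rho = -0.31 (exact permutation p = 0.26 and 0.46, adjusted p = 0.39 and 0.69). Leaving out NmatCpat animal 2 and NmatNpat animal 1, farthest in TH, turned these r to 0.41 and 0.20.

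The study asked whether the Callipyge mutation changes transcription in this fat. None of the 9 genes passed the thresholds used (P no higher than 0.05 together with more than a 1.5-fold difference), which 943 of all 24016 probe sets (3.93%) passed in limma. At P of at most 0.05 alone, 1 of the 9 passed, NR5A1, against 4.66% of all probe sets. At an adjusted p under 0.05 none passed, as for all probe sets (0%). The genotypes overlapped in all 9 genes, and they did not overlap in 2.74% of all probe sets. The median log2 difference, NmatCpat minus NmatNpat, was 0.07 over the 9 genes and 0.0055 over all probe sets, with 6 genes above and 3 below 0.

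NR5A1 averaged 7.36 ± 0.156 (SD, n = 4) for NmatCpat against 6.94 ± 0.187 (SD, n = 4) for NmatNpat, a log2 difference of 0.42 (95% interval 0.02 to 0.81, limma adjusted p = 0.98, exact permutation p = 0.057). This is a 1.33-fold difference, under the fold threshold. The other probe sets of NR5A1 differed by 0.13, -0.08 and -0.02, and the mean of all 4 by 0.11. Its unadjusted P exceeded 0.05 when any single one of 6 of the lambs was left out. Permutation tests were two-sided, and with 4 lambs against 4 the smallest p they can give is 0.0286.

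FDX1 averaged 9.36 ± 0.263 (SD, n = 4) for NmatCpat against 8.91 ± 0.586 (SD, n = 4) for NmatNpat, a log2 difference of 0.45 (95% interval -0.26 to 1.17, limma adjusted p = 0.98, exact permutation p = 0.20). Without NmatNpat animal 2, the highest lamb, the difference was 0.72 and FDX1 passed the thresholds (adjusted p = 0.98 from limma), while without NmatNpat animal 4, the lowest lamb, it was 0.29. CYP17A1 had the largest difference of the 9, 0.79 (95% interval -0.70 to 2.28, limma adjusted p = 0.98, exact permutation p = 0.40), with means of 5.17 ± 0.425 and 4.38 ± 1.38 (SD, n = 4 each). It was 0.29 without NmatNpat animal 2, where FDX1 had the larger difference, and 1.21 without NmatNpat animal 4. The remaining genes had log2 differences of 0.15 for HSD3B1, 0.07 for STAR, 0.012 for CYP11B1, -0.023 for CYP11A1, -0.16 for CYP21A2 and -0.23 for MC2R, with exact permutation p from 0.60 to 0.97. The 95% interval stayed inside a 2-fold change either way for 2 of the 9, NR5A1 and CYP21A2. For MC2R it ran from -2.22 to 1.75, so a 2-fold difference in either direction was not excluded. Without NmatNpat animal 1 none of the 9 passed the thresholds either, and the log2 differences ran from -0.73 for MC2R to 0.51 for CYP17A1.

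**Figure D5:**
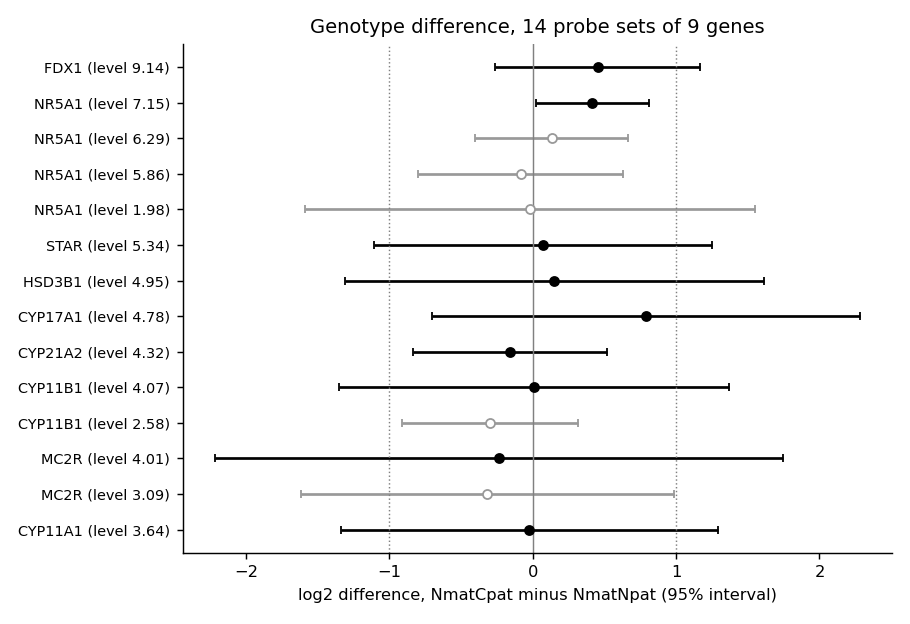
Log2 difference between NmatCpat and NmatNpat lambs (horizontal axis) with its 95% interval from limma for each of the 14 probe sets (vertical axis, with the mean level). Filled points are the brightest probe set of a gene, open points the others, and dotted lines mark a 2-fold change; the interval of the brightest NR5A1 probe set, 0.02 to 0.81, is the one that does not cross 0.

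Other genes of the pathway were read from a list of 70, of which 44 had a named probe set. Unlike 7 of the 9 members, 33 of these 44 had means above the median level. Of the 44, 2 passed the thresholds upward and 1 downward, against 2.04% and 1.88% of all probe sets. The median log2 difference was -0.01, with 21 above and 23 below 0, and in limma none had an adjusted p under 0.05, against 3 with an unadjusted P of at most 0.05.

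All 8 measured genes of cholesterol uptake, storage and transfer and all 5 measured electron donors and cofactor genes were above the median level. Of the cholesterol genes, NPC1, which exports cholesterol from lysosomes, passed downward. It read 10.3, 10.2, 10.3 and 10.4 in NmatCpat and 10.7, 11.4, 10.4 and 11.2 in NmatNpat animals 1 to 4, without overlap, a log2 difference of -0.59 (95% interval -1.13 to -0.04, limma adjusted p = 0.98, exact permutation p = 0.0286). The fold was 1.502, at the threshold. NmatNpat animals 2 and 4 carried most of it. The 5 electron donors and cofactor genes had differences of 0.15 to 0.25, none past the thresholds.

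Of 15 measured enzymes that convert or conjugate steroids, 9 were above the median level. AKR1C3, an aldo-keto reductase that acts on steroids and prostaglandins, passed upward. It read 2.04, 3.29, 3.16 and 2.71 in NmatCpat and 1.32, 1.66, 1.06 and 2.35 in NmatNpat animals 1 to 4, a log2 difference of 1.21 (95% interval 0.35 to 2.06, limma adjusted p = 0.98, exact permutation p = 0.057). Its signal was among the lowest 4.03% of probe sets, and the genotypes overlapped. SULT1E1, the oestrogen sulfotransferase, had the widest spread of the list, from -0.36 to 5.20, at a similarly low mean.

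Of 16 measured regulators, 11 were above the median level and INHA, the inhibin alpha subunit, passed upward. It read 7.09, 5.68, 6.19 and 6.83 in NmatCpat and 5.82, 5.87, 5.69 and 5.50 in NmatNpat animals 1 to 4. The log2 difference was 0.73 (95% interval 0.0007 to 1.46, limma adjusted p = 0.98, exact permutation p = 0.11). NmatCpat animals 1 and 4 were high, and NmatCpat animal 2 lay below 3 of the 4 NmatNpat lambs. Leaving out NmatCpat animal 1, NmatCpat animal 4, NmatNpat animal 2 or NmatNpat animal 4 brought the 3 genes of this list past the thresholds down to 1, and leaving out both NmatNpat animal 1 and NmatCpat animal 4 brought them to 0.

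A second list held genes of the cortex and its zones other than the 9. Of 16 measured, 10 were above the median level, from means of 3.11 for SULT2A1 and 3.15 for SHH to 11.8 for RARRES2 and 12.2 for CTNNB1. Not every gene of this list is particular to the cortex, so the count is no measure of cortex tissue. SULT2A1 and CYB5A are also in the list of pathway partners. None of the 16 passed the thresholds or P of at most 0.05 alone in limma, against 3.93% and 4.66% of all probe sets. APOE, a lipid carrier made by many cells, had the smallest p of this list, with a log2 difference of -0.65 (adjusted p = 0.98 from limma). It read 10.3 in NmatNpat animal 1 and 8.15 to 8.92 in the other lambs. SHH, a signal of the outer cortex, had the largest spread and read 1.58 to 5.01. On the array of NmatNpat animal 1, 4 of the 16 were highest, against 0 to 3 on each other array. HPX exceeded the average of the other arrays by 2.25 log2 units there, and SHH by 2.12 on that of NmatNpat animal 4. The mean deviation of the 16 genes from their own averages was largest for NmatNpat animal 1, at 0.27.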

How the data were processed

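Total RNA of perirenal adipose tissue from 4 NmatCpat and 4 NmatNpat lambs was hybridised to 1 Affymetrix Bovine Genome array per lamb. The authors made the deposited intensity values with MAS5 (per the labels, with no version stated), and their methods describe background correction and quantile normalization. The deposited columns hold linear intensities that do not share quantiles, so log2 values were quantile-normalized here over 24128 probe sets, and 112 controls were then left out. Only 8 arrays limit the precision.

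limma 3.58.1 (R 4.3.3) tested NmatCpat against NmatNpat on the remaining 24016 probe sets, with Benjamini-Hochberg adjustment over all of them. Exact permutation tests of the genotypes used the 70 arrangements of the lambs. They were made on all 14 member probe sets and on every measured gene of the lists, and their p-values were not adjusted. Symbols came from the platform annotation. Of the probe sets 13292 had 1 symbol, 86 had several and 10638 had none. Of the 9 symbols, 8 were found in RefSeq's table for sheep assembly ARS-UI_Ramb_v3.0. No detection calls were used.

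The members and the 6 gene lists (pathway partners, cortex, medulla, kidney, fat, gonad) were chosen with earlier results of these data known. Named genes were the members and, per list, genes past the thresholds, with the smallest p and with the largest SD, TH, NEFL, and the 3 genes most like each member above the median level. Alternatives were other variance models, array weights, normalizations, an offset of 16, filters, thresholds, the animal number as a block and lambs left out. The scripts were tested on simulated data. The main fit did not pair the lambs by animal number.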

Additional observations from a re-analysis of the deposited data

Results flagged for a closer look

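In a group of 4 lambs, a value was marked where its gap to the nearest lamb was an unusually large part of the group's range (the ratio given). Among 28 groups of member probe sets 2 were marked, and among all 56 groups examined 5. Chance marks about 1 in 20 groups. STAR in NmatCpat lambs had a ratio of 0.855, with animal 3 at 6.14 and the others at 5.07 to 5.23. NR5A1 in NmatCpat lambs, on its brightest probe set, had a ratio of 0.919, with animal 3 at 7.12 and the others at 7.43 to 7.45. NmatCpat animal 3 was thus high for one and low for the other. Among the other genes named, TH in NmatNpat lambs had a ratio of 0.999 (animal 1 at 10.2, the others at 3.95 to 3.96), SHH in NmatNpat lambs 0.932 (animal 4 at 5.01, the others at 2.63 to 2.79) and UMOD in NmatCpat lambs 0.837 (animal 4 at 4.75, the others at 5.42 to 5.56). TH was named because it was known to be high on 1 array, and SHH and UMOD for the largest SD of their lists. The chance rate therefore does not apply to these genes.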

How the results depend on the processing

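No member had an adjusted p under 0.05 in limma under any of 19 alternatives. At P and fold, the number of the 9 members called stayed at 0 except for 1 at P of at most 0.05 with no fold (NR5A1), and it ran from 0 to 1 over single lambs left out. FDX1 was the one called, without NmatNpat animal 2. Of the pathway partners, 3 were called, and 1 with median-centred arrays or an offset of 16, 0 at P of at most 0.01, 0 without NmatNpat animal 1 and NmatCpat animal 4, and 1 to 2 over single lambs left out. Differences near 0 turned. CYP11A1 (-0.023) was 0.013 with median-centred arrays, 0.049 with an offset of 16 and 0.29 without NmatNpat animal 1 and NmatCpat animal 4. CYP11B1 (0.012) was -0.0028 with cyclic loess and -0.14 as the mean of its probe sets, and HSD3B1 (0.15) was -0.17 without those 2 lambs, where MC2R was -1.25. Over single lambs left out, the differences ran from -0.40 to 0.37 for STAR, -0.51 to 0.38 for CYP11A1, -0.50 to 0.32 for CYP11B1, -0.31 to 0.081 for CYP21A2, -0.30 to 0.49 for HSD3B1 and -0.76 to 0.22 for MC2R. CYP17A1, NR5A1 and FDX1 stayed above 0 in all alternatives run, at 0.29 to 1.21, 0.37 to 0.50 and 0.29 to 0.72 over single lambs left out, and NR5A1 was 0.11 as the mean of its probe sets. The relation of NR5A1 with TH was 0.51 without NmatNpat animal 1. The cause was not tested. With the animal number as a replicate block, 0 members and 3 partners were called. NR5A1 then had an unadjusted limma P of 0.11 (adjusted p = 0.94), against 0.041 in the main fit. Its unadjusted limma P was 0.0503 with array weights and 0.59 as the mean of its probe sets. Under the other variance models, normalizations and filters it was 0.014 to 0.044. Correlations of deviations between same-numbered lambs were near 0 (-0.013 to 0.048), yet 3 of 4 NmatCpat lambs were best matched by their own number. With that block, 1124 probe sets were called. Whether the numbers pair the lambs cannot be told from these values. Over all probe sets, 943 were called, 626 without moderated variances, 317 of 9155 genes with probe sets averaged and 244 of 12008 above the median level, a filter that left NR5A1 and FDX1 of the members. Low signal limits what 7 of the 9 members can show.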

Other observations

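Of 7 measured genes of steroid cells of the gonads, INHA alone was above the median level. It alone passed the thresholds, which 3.93% of all probe sets passed. INHA and CYP19A1, the aromatase, are also in the list of pathway partners. FSHR, the receptor of follicle-stimulating hormone, read 1.91 to 5.59 and had the largest spread of that list.

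Of 26 chromaffin and neuron genes none passed the thresholds between genotypes, against 3.93% of all probe sets. Their median log2 difference was -0.98, and it was -0.0081, with 13 of 26 above 0, without NmatNpat animal 1, an alternative chosen after seeing the data. VIP, a neuropeptide, came closest, at -1.10 (adjusted p = 0.98 from limma). Of 19 kidney genes 1 passed, AQP3, a water and glycerol channel, against 3.93% of all probe sets. It averaged 10.5 ± 0.205 for NmatCpat against 9.93 ± 0.255 for NmatNpat (SD, n = 4 each, limma adjusted p = 0.98). Its exact permutation p of 0.0286 was the smallest possible. Of 19 fat cell genes none passed. CEBPA, a transcription factor of fat cells, had the smallest p of these, with a difference of 0.48 (adjusted p = 0.98 from limma), and RETN, the hormone resistin, the largest spread, from 3.18 to 6.23.

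Of 9146 other genes, those whose pattern over the 8 lambs was most like NR5A1 were ADPRS (Pearson r = 0.97), WIPI2 (0.95) and DXO (0.94). For FDX1 they were SCFD2 (0.95), SDHAF2 (0.94) and CCL11 (0.93). These are the highest of many values over 8 lambs and are given as a description.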
